A study of Homo sapiens with 8 samples.

Results

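The 10 DNA repair genes described here are RAD51B, RAD51C, RAD54B, XRCC3 and PALB2 of homologous recombination, MSH6 of mismatch repair, UNG, XRCC1 and PARP1 of base excision and single-strand break repair, and the damage checkpoint kinase CHEK2. They were chosen by gene symbol with values of these arrays already known, so their levels, differences and adjusted p-values are given as a description of these arrays. They are 10 of the 14884 genes that the probe annotation names, and they carry 11 probe sets, because CHEK2 has 2. All 10 genes passed the filter on dim genes and entered the fit.

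Expression was measured on Affymetrix arrays in 2 established human lines of T-cell acute lymphoblastic leukaemia, CCRF-CEM and HPB-ALL. Each line was represented by 4 arrays, 1 per construct: a scramble short hairpin RNA, the hairpins shTOX-1 and shTOX-2 against the transcription factor gene TOX, and untransduced cells. The transduced cultures had been selected with puromycin and kept for at least 2 weeks, a treatment the labels describe for the transduced cells and not for the untransduced ones. The scramble arrays therefore share transduction and selection with the shTOX arrays, while the untransduced arrays differ from them in both, which cannot be told apart. With 1 array per line and construct, no group was replicated and no spread between cultures of the same group was measured. Every p-value rests on what the fitted terms leave over between arrays of different hairpins, lines or controls.

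TOX, the targeted gene, read log2 11.03 and 11.03 in the CCRF-CEM controls and 10.59 and 10.64 in those of HPB-ALL. With shTOX-1 the log2 values were 10.65 for CCRF-CEM and 10.16 for HPB-ALL, and with shTOX-2 they were 9.86 and 8.75. Each shTOX array lay below the controls of its line, the shTOX-2 arrays farthest, but the difference from the 4 controls was not past the threshold (-0.96 ± 0.28 SE on the log2 scale, limma adjusted p = 0.292). Of 12 listed T cell markers 9 had a probe set and 8 reached the filter level (log2 5.18) by their mean over all arrays. CD2 was below it by that mean, but read at least 5.44 in CCRF-CEM. CD28 was above it by that mean, but read at most 4.84 in HPB-ALL. Among markers of other cells, 1 of 4 measured B cell genes (PAX5) reached that level by its mean. So did 3 of 7 myeloid genes (CD68, S100A9 and MPO) and 2 of 4 NK cell genes (NCR1 and NKG7). NKG7 read 7.31 to 8.99, CD68 read 6.41 to 7.46, and MPO read up to 7.94 in HPB-ALL. Array medians over all probe sets lay between log2 4.62 and 4.71.

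Homologous recombination repairs double-strand breaks by copying an intact sister chromatid: PALB2 brings BRCA2 to the break, the related proteins RAD51B, RAD51C and XRCC3 act in complexes that assist strand exchange, and RAD54B is a motor protein of the same step. Mismatch repair corrects replication errors, and MSH6 is a subunit of the complex that recognises base mismatches. In base excision repair UNG removes uracil from DNA, and PARP1 and the scaffold protein XRCC1 act at the single-strand breaks that follow. CHEK2 is the kinase that ATM activates after double-strand breaks. Because recombination uses a sister chromatid and mismatch repair follows the fork, many genes of both pathways are known to peak with DNA replication.

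Promoter sequences are shown for the 4 genes with the largest differences between shTOX and untransduced cells (UNG, MSH6, PARP1 and CHEK2) and for PALB2. PALB2, like RAD51B and RAD51C, was not lowest in untransduced cells of HPB-ALL. Windows of 250 bases before a listed transcript start were taken from RefSeq (build GRCh38.p14) in the gene's own direction, and an entry was matched for 9 of the 10 genes, RAD54B being the other. Capitals mark matches, on either strand, to the 4 E2F words TTTCCCGC, TTTCGCGC, TTTGCCGC and TTTGGCGC, to the CCAAT box (ATTGG on the opposite strand) and to the cAMP response element word TGACGTCA.
UNG, chr12:109097922-109098171 (+): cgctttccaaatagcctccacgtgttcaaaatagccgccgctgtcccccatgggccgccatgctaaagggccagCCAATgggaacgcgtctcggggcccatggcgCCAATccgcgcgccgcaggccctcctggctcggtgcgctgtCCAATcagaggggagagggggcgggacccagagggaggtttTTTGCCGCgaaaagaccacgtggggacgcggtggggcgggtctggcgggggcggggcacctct
MSH6, chr2:47782895-47783144 (+): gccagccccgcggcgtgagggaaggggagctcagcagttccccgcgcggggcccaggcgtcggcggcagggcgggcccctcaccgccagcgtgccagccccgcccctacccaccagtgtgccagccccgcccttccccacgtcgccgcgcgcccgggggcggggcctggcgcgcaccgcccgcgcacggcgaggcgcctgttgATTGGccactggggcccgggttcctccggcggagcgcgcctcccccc
PARP1, chr1:226408094-226408343 (-): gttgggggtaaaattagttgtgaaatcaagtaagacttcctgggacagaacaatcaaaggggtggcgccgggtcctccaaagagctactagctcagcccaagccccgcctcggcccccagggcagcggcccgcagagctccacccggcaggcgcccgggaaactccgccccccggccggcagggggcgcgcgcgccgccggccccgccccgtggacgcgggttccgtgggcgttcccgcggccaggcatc
CHEK2, chr22:28741821-28742070 (-): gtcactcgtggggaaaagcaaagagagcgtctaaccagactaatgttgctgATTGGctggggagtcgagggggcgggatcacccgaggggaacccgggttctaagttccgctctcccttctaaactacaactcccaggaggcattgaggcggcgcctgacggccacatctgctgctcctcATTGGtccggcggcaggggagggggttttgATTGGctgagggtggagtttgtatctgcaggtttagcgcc
PALB2, chr16:23641311-23641560 (-): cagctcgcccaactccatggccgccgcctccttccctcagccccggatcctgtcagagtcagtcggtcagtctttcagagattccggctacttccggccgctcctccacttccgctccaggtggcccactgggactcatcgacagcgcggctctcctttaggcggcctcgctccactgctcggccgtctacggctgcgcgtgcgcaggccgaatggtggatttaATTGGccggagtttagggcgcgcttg
The UNG window precedes the later of its 2 listed starts and holds 3 CCAAT boxes and 1 E2F word; the window of its other start holds none of the words. CHEK2 has 3 CCAAT boxes, MSH6 and PALB2 have 1 each, and PARP1 has no match. The MSH6 window precedes the first of its 4 listed starts, and the windows of its other starts hold none of the words. An E2F word was found in a window of 1 of the 9 genes (UNG), against 4.6% of 15843 protein-coding genes. A CCAAT box was found in 6 of 9, against 40.2%, and the cAMP response element word in 1 of 9 (RAD51C), against 2.73%. No matches overlap in the printed windows, the words were chosen with the expression values known, and a match describes the letters only.

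**Figure D1:**
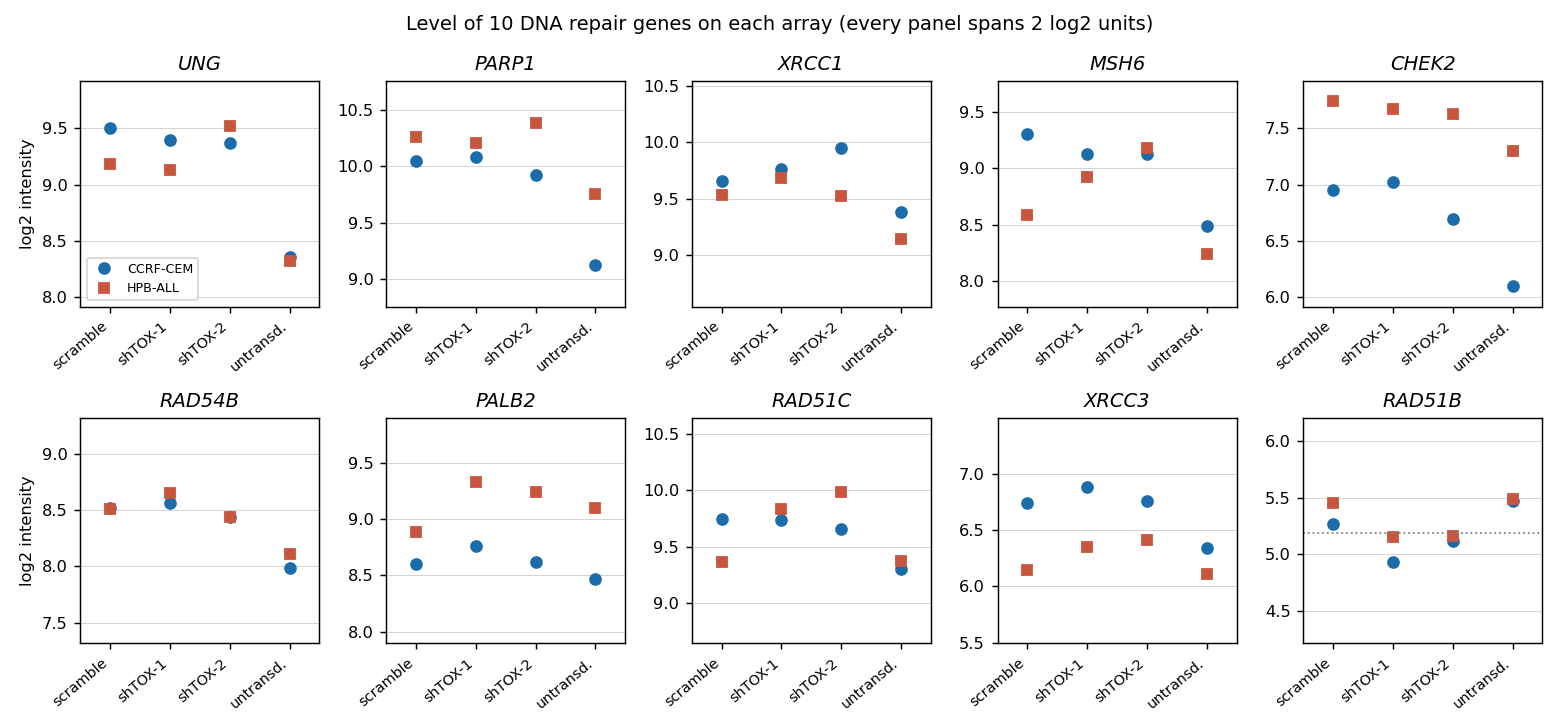
Log2 level of each repair gene on each array, with 1 panel per gene. Colours and marker shapes give the line and positions along the x axis the construct, and every point is 1 array. In both lines the untransduced point is the lowest for UNG, PARP1, XRCC1, MSH6, CHEK2, RAD54B and XRCC3, and the highest for RAD51B.

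The base excision and single-strand break genes were lower in untransduced cells of both lines than in any transduced culture. UNG, which excises uracil, had a log2 value of 9.50 with scramble, 9.40 with shTOX-1, 9.37 with shTOX-2 and 8.36 untransduced in CCRF-CEM. In HPB-ALL the UNG values were 9.19, 9.12, 9.52 and 8.32 in the same order. The 6 transduced arrays lay together and both untransduced arrays lay clearly below them. UNG was 2.02-fold higher with shTOX than in untransduced cells (log2 difference 1.01 ± 0.15 SE, limma adjusted p = 0.0065) and 2.00-fold higher with scramble (1.00 ± 0.17, adjusted p = 0.0343). Between shTOX and scramble it differed by 0.01 ± 0.15 on the log2 scale.

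PARP1, the enzyme that marks strand breaks with poly(ADP-ribose), was also lowest in untransduced cells of each line. Its log2 values in CCRF-CEM were 10.05 with scramble, 10.08 with shTOX-1, 9.93 with shTOX-2 and 9.13 untransduced, and in HPB-ALL 10.27, 10.21, 10.39 and 9.75. The transduced arrays of a line lay close together, and the gap to the untransduced array was wider in CCRF-CEM. PARP1 was 1.63-fold higher with shTOX than in untransduced cells (0.71 ± 0.14, limma adjusted p = 0.0158), with a similar scramble difference that was not past the threshold (0.72 ± 0.16, adjusted p = 0.0725) and a difference of -0.01 ± 0.14 between shTOX and scramble.

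XRCC1, the scaffold for single-strand break repair, had log2 values of 9.65, 9.76, 9.95 and 9.38 in CCRF-CEM (scramble, shTOX-1, shTOX-2, untransduced). In HPB-ALL they were 9.53, 9.68, 9.52 and 9.14. Untransduced cells were again lowest in each line, by a smaller margin. The difference from shTOX was 0.47 ± 0.13 on the log2 scale (1.38-fold, limma adjusted p = 0.0453), and that of scramble from untransduced cells was 0.33 ± 0.15 (adjusted p = 0.285). The shTOX call was lost with any 1 array left out, the difference staying between 0.42 and 0.51. Quantile normalization also lost it (limma adjusted p = 0.0543).

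MSH6, the mismatch recognition subunit, had log2 values of 9.31 with scramble, 9.13 with shTOX-1, 9.12 with shTOX-2 and 8.49 untransduced in CCRF-CEM. The HPB-ALL values were 8.58, 8.92, 9.18 and 8.24 in that order. In CCRF-CEM the scramble array was the highest, whereas in HPB-ALL it lay between the untransduced and the shTOX arrays. MSH6 was 1.65-fold higher with shTOX than in untransduced cells (0.73 ± 0.17, limma adjusted p = 0.0245). The shTOX arrays of HPB-ALL exceeded scramble by 0.34 and 0.60 on the log2 scale, and those of CCRF-CEM were both 0.18 below it.

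CHEK2, the checkpoint kinase, had log2 values of 6.95, 7.02, 6.69 and 6.10 in CCRF-CEM (scramble, shTOX-1, shTOX-2, untransduced). The HPB-ALL values were 7.74, 7.67, 7.63 and 7.30. Every HPB-ALL array lay above every CCRF-CEM array, and the untransduced array was the lowest in each line. The shTOX difference from untransduced cells was 0.55 ± 0.15 on the log2 scale (1.47-fold, limma adjusted p = 0.0446), and the scramble difference was 0.65 ± 0.17 (adjusted p = 0.101). The second CHEK2 probe set read at most log2 3.46, below the filter level, and was not tested. The call was lost with any 1 array left out (difference 0.35 without CCRF-CEM untransduced, adjusted p = 0.408, and 0.47 to 0.76 without any other) and with both probe sets averaged (0.38, adjusted p = 0.111).

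Of the recombination genes described here only RAD54B, the motor of strand exchange, was past the threshold between shTOX and untransduced cells. Its log2 values were 8.52, 8.56, 8.44 and 7.99 in CCRF-CEM, in the order scramble, shTOX-1, shTOX-2, untransduced. HPB-ALL gave 8.51, 8.65, 8.44 and 8.11. The levels of the lines nearly coincided construct by construct. The difference was 0.47 ± 0.13 for shTOX (1.39-fold, limma adjusted p = 0.0417) and 0.47 ± 0.15 for scramble (adjusted p = 0.145), and 0.01 ± 0.13 between shTOX and scramble. The RAD54B call was lost without either untransduced array or any one shTOX array, the difference staying between 0.43 and 0.52. It was also lost with arrays shifted to one median (limma adjusted p = 0.0563).

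RAD51C, a subunit of complexes that assist strand exchange, had log2 values of 9.74, 9.74, 9.66 and 9.30 in CCRF-CEM, in the same order. Those of HPB-ALL were 9.37, 9.83, 9.99 and 9.38. In HPB-ALL both shTOX arrays lay above both controls, by 0.47 and 0.62 over scramble, while in CCRF-CEM the scramble array was level with them. CCRF-CEM was 0.38 above HPB-ALL with scramble and 0.33 below it with shTOX-2. The shTOX difference from untransduced cells was 0.46 ± 0.15 on the log2 scale (limma adjusted p = 0.0839).

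XRCC3, the partner of RAD51C, had log2 values of 6.74, 6.88, 6.76 and 6.34 in CCRF-CEM, again in that order. They were 6.15, 6.35, 6.41 and 6.11 in HPB-ALL. Both shTOX arrays lay above both controls in each line, in CCRF-CEM by very little over scramble. The differences were 0.38 ± 0.13 from untransduced cells (limma adjusted p = 0.0919) and 0.16 ± 0.13 from scramble.

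PALB2, the partner of BRCA2, had log2 values of 8.60, 8.76, 8.62 and 8.47 in CCRF-CEM. HPB-ALL had 8.88, 9.33, 9.24 and 9.10. It was above both controls in all 4 shTOX arrays, and in HPB-ALL its lowest array was scramble, not untransduced. The log2 difference was 0.20 ± 0.13 from untransduced cells (limma adjusted p = 0.348) and 0.24 ± 0.13 from scramble, and scramble differed from untransduced cells by -0.04 ± 0.15.

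RAD51B, a relative of RAD51C, ran the other way, at a level close to the filter. Its log2 values were 5.27 with scramble, 4.93 with shTOX-1, 5.12 with shTOX-2 and 5.47 untransduced in CCRF-CEM. In HPB-ALL they were 5.46, 5.15, 5.16 and 5.49. All 4 shTOX arrays were below the filter level of 5.18 and all 4 control arrays above it, and the untransduced array was the highest in each line. RAD51B entered the fit by its mean over all arrays (5.25), which only the control arrays held above that level. Its p-values therefore depend on the group where it is high. The difference was -0.39 ± 0.12 from untransduced cells (limma adjusted p = 0.0725), -0.27 ± 0.12 from scramble and -0.33 ± 0.11 from all controls, the last alike in CCRF-CEM (-0.34) and HPB-ALL (-0.32).

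Against untransduced cells, 6 of the 10 repair genes were higher with shTOX and none was lower, where 6.18% of the 8930 genes tested were higher, 5.64% were lower and 11.8% were called in either direction (limma, Benjamini-Hochberg adjusted p under 0.05). The median log2 difference was 0.47 over the 10 genes and 0.04 over all genes. Without the CCRF-CEM untransduced array, which left 1 untransduced array in the fit, the calls of the repair genes were lost. Calls over all genes were also fewest in that fit. The UNG difference was then 0.96. Without the HPB-ALL untransduced array, or without HPB-ALL shTOX-2, 2 genes were called (UNG and PARP1), and without any one of the other 3 shTOX arrays 3 were (UNG, PARP1 and MSH6). A fit without the line term called none of the repair genes and 1 of all genes tested, every difference of the repair genes keeping its size.

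Scramble against untransduced cells, a contrast that shares the untransduced arrays with the one above, called UNG alone, where 0.582% of genes were higher and 1.06% were called either way. The median difference of the 10 genes was 0.40 on the log2 scale, against 0.02 over all genes. The UNG call was lost without either untransduced array, either scramble array or CCRF-CEM shTOX-2, while the difference stayed between 0.87 and 1.13. In the untransduced cells 7 of 10 repair genes were the lowest of the 4 arrays in both lines, which was so for 20.5% of all genes.

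**Figure D2:**
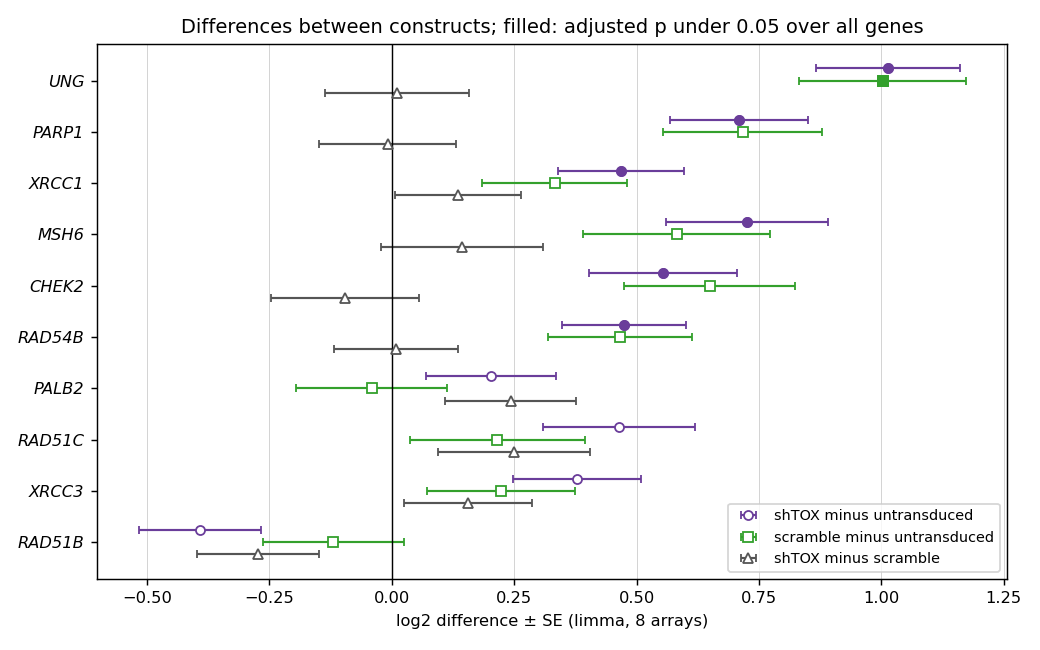
Log2 difference between constructs for each repair gene, ± SE from the limma fit over 8 arrays; colours and markers give the 3 contrasts and filled markers an adjusted p under 0.05 over all genes. UNG, PARP1, CHEK2 and RAD54B show similar shTOX and scramble differences from untransduced cells and shTOX minus scramble values near 0.

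Between shTOX and scramble, both transduced and selected, no repair gene was called and none of the 8930 genes was (0%). An unadjusted p under 0.05 was reached by 5.14% of genes and by none of the 10, RAD51B being nearest at 0.0552. The differences ran from -0.27 for RAD51B to 0.25 for RAD51C, with adjusted p-values of 0.93 to 0.999, and their standard errors were 0.12 to 0.17 on the log2 scale. Without the HPB-ALL scramble array the RAD51C difference was -0.02 and that of MSH6 was -0.15, against 0.25 and 0.14 with it. PALB2 and XRCC3 lay above both controls in all 4 shTOX arrays, a pattern found in 6.36% of genes, and RAD51B lay below both controls in all 4, as did 4.99%.

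With scramble and untransduced arrays joined as controls, again no gene was called (0%), and 14.3% of genes had an unadjusted p under 0.05. RAD51B (0.0115), RAD51C (0.0253), MSH6 (0.0428), XRCC1 (0.0434) and XRCC3 (0.0495) did so among the 10, with limma adjusted p-values from 0.301 upwards. RAD51B was tested only because its control arrays held its mean above the filter level. The difference was positive for 9 of 10 repair genes and for 54.7% of all genes. Without both untransduced arrays the values of PARP1 and CHEK2 turned negative (-0.01 and -0.10), from 0.35 and 0.23 with them.

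No difference between the hairpins was past the threshold: shTOX-2 minus shTOX-1 ran from -0.18 ± 0.28 for CHEK2 to 0.18 ± 0.38 for UNG on the log2 scale, and no gene of the whole table was called (0%, with 4.27% at an unadjusted p under 0.05). The shTOX difference was also set against itself between the lines. It was 0.41 ± 0.37 smaller in CCRF-CEM than in HPB-ALL for MSH6 and 0.36 ± 0.26 smaller for RAD51C, with adjusted p-values of 0.974 and 0.973, and no gene was called (0%, with 4.59% at an unadjusted p under 0.05). Fitted within a line, RAD51C differed from the controls by 0.18 ± 0.18 in CCRF-CEM, against 0.54 ± 0.18 in HPB-ALL, and MSH6 by 0.23 ± 0.26, against 0.64 ± 0.26. The hairpin, between-line and within-line fits all joined scramble and untransduced arrays as controls. The gap between these controls therefore entered the standard errors, and the lack of calls is not a measure of the hairpins alone.

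**Figure D3:**
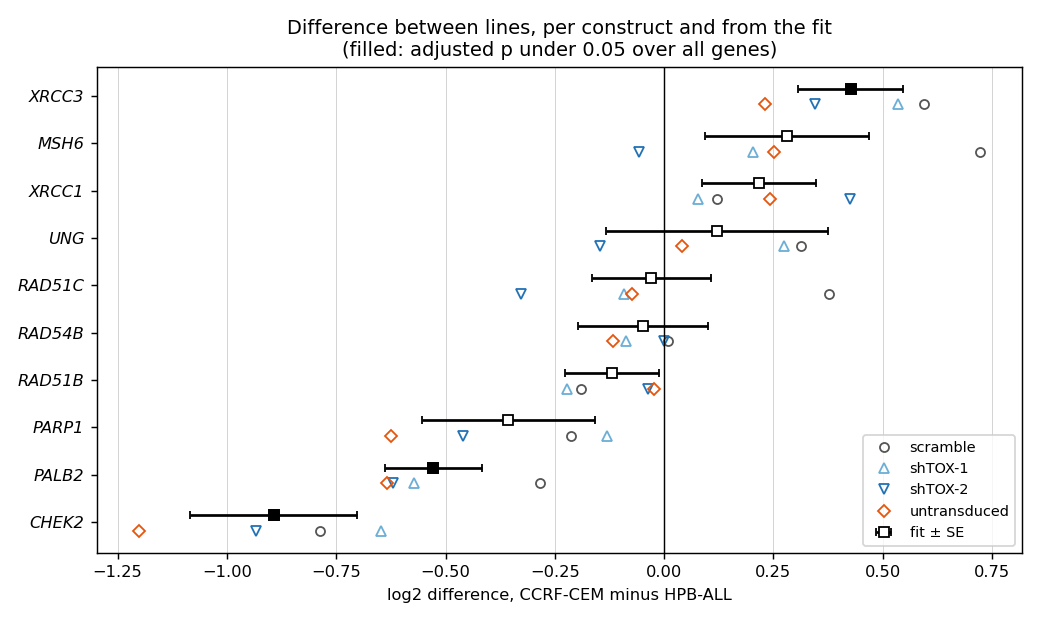
Log2 difference between CCRF-CEM and HPB-ALL for each repair gene: small points are the 4 construct-matched differences, squares the fitted difference ± SE (limma, 8 arrays), filled where the adjusted p was under 0.05. CHEK2 and PALB2 lie below 0 and XRCC3 above 0 with every construct.

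The 2 leukaemia lines differed in 3 of the 10 repair genes, where 27.4% of all genes were called. CHEK2 was 1.86-fold lower in CCRF-CEM (log2 difference -0.89 ± 0.19, limma adjusted p = 0.0064), with construct-matched differences from -1.20 in untransduced cells to -0.65 with shTOX-1. PALB2 was 1.44-fold lower in CCRF-CEM (-0.53 ± 0.11, adjusted p = 0.0058), with matched differences from -0.63 to -0.28. For these 2 genes the 4 arrays of one line did not overlap those of the other, as for 27% of all genes.

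XRCC3 was 1.34-fold higher in CCRF-CEM (0.43 ± 0.12, limma adjusted p = 0.0237), with matched differences from 0.23 to 0.59, but its arrays overlapped between the lines. Its call was lost when any one array was left out other than CCRF-CEM untransduced or HPB-ALL scramble, the difference keeping its sign. Of the other 7 genes, PARP1 (-0.36) and RAD51B (-0.12) were lower in CCRF-CEM with every construct and XRCC1 (0.22) was higher with every construct, none past the threshold. RAD54B (-0.05 ± 0.15) and RAD51C (-0.03 ± 0.14) had differences smaller than their errors, and the signs of both turned positive after quantile normalization.

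Other genes of the same pathways were described from lists of textbook members, leaving out the 10 genes above. Between shTOX and untransduced cells 6.18% of all genes tested were called higher and 5.64% lower, and 55% had a positive difference. The list counts below are to be read beside these shares. Of 36 listed recombination genes, 21 had a probe set and were tested, and 1 was called between shTOX and untransduced cells: SLX4, a nuclease scaffold (0.47 ± 0.13 higher with shTOX, limma adjusted p = 0.0404). The list's median difference was 0.26 and 14 of 21 were positive. That call was lost without either untransduced array and without any one of the 4 shTOX arrays.

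Mismatch repair had 6 tested genes of 15 listed, none called and 3 of them positive, with a median of 0.02. The sliding clamp gene PCNA stood highest at 0.47 ± 0.16 (limma adjusted p = 0.0904) and the endonuclease gene PMS2 lowest at -0.42 ± 0.21. MSH6 was the one gene of that pathway past the threshold in this contrast.

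Base excision and single-strand break repair had 17 tested genes of 23 listed, of which 3 were higher with shTOX than in untransduced cells, with a median of 0.03 and 9 positive. They were FEN1, the flap endonuclease that also matures Okazaki fragments (1.10 ± 0.14), NTHL1, a glycosylase for oxidised pyrimidines (0.67 ± 0.16), and APEX2, an abasic site endonuclease (0.62 ± 0.14). FEN1 was also higher with scramble than in untransduced cells (1.01). The base excision count fell to 1 without CCRF-CEM shTOX-1 or HPB-ALL shTOX-2, and the median of the list lay near that of all genes.

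Among 16 tested checkpoint genes of 21 listed, 4 were higher with shTOX than in untransduced cells, with a median of 0.11. These were CLSPN, the ATR-CHEK1 adaptor (1.18 ± 0.20), the phosphatases CDC25A (0.95 ± 0.13) and CDC25C (0.72 ± 0.13), and TIMELESS of the fork protection complex (0.63 ± 0.14). CDC25A was the one of them called with scramble too (0.78).

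The cell cycle lists had larger medians in the same contrast than the repair lists. Of all genes tested, 6.18% were called higher there. Of 21 S phase genes tested, 12 were higher with shTOX than in untransduced cells and all 21 were positive (median 0.59), with cyclin E gene CCNE1 at 1.78 ± 0.30 and the helicase subunit MCM2 at 0.81 ± 0.14. Of 16 genes of G2 and mitosis 15 were higher (median 0.69), with cyclin B gene CCNB1 at 1.34 ± 0.17 and the survivin gene BIRC5 at 1.23 ± 0.14. Against scramble no gene of any of these lists was called. The part of cell cycle state in the differences of the repair genes was not tested.

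Array by array, the median of the 10 repair genes relative to the scramble array of the same line was -0.48 in untransduced CCRF-CEM and -0.37 in untransduced HPB-ALL. The S phase list stood at -0.66 and -0.40 there, and the list of G2 and mitosis at -0.83 and -0.62. The other recombination genes stood at -0.31 and -0.06, and those of base excision at -0.21 and 0.01. The checkpoint list stood at -0.33 and 0.13 and that of mismatch repair at -0.17 and 0.20, so in HPB-ALL these lists did not share the drop of the 10 genes. In the 4 shTOX arrays the repair genes of CCRF-CEM stood at 0.04 and -0.11, those of HPB-ALL at 0.14 and 0.19. Without the CCRF-CEM untransduced array most or all calls between shTOX and untransduced cells were lost in every list that had any. Calls over all genes were also fewest in that fit. Without the HPB-ALL untransduced array most calls of the S phase genes and of those of G2 and mitosis were lost. Each of these fits had 1 untransduced array left. Without HPB-ALL shTOX-2, 7 S phase genes were called, and without CCRF-CEM shTOX-1, 8 were. The 8 T cell markers were all negative in the contrast of shTOX with untransduced cells, with a median of -0.67. Of them 2 were called lower (CD7 and TRAT1), where 5.64% of all genes were. Their part in the result was not tested.

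**Figure D4:**
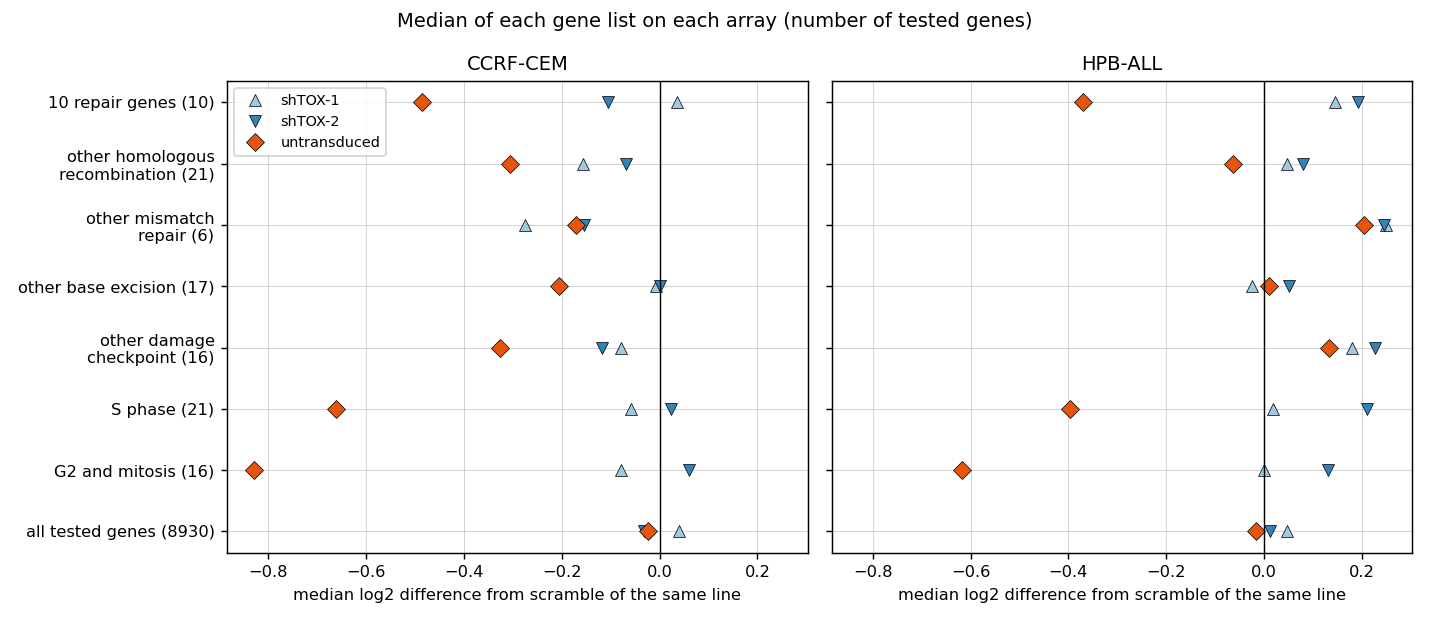
Median log2 difference from the scramble array of the same line, for the 10 repair genes, the pathway lists without them and all genes tested, on the other 3 arrays of each line. In both lines the untransduced array stands lowest for the cell cycle lists, the other recombination genes and the 10 repair genes. In CCRF-CEM it also stands lowest for the base excision and checkpoint lists. All genes stay near 0.

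Between the lines the same lists held genes of either direction, where 27.4% of all genes tested were called. The counts below are to be read beside that share. In base excision repair 6 of 17 were called, 4 higher in CCRF-CEM and 2 lower. The largest differences were those of the glycosylases NEIL1 (1.87 higher, with an HPB-ALL level below the filter) and NEIL2 (-1.09, with a CCRF-CEM level below it). Both entered the fit by a mean over all arrays that only the higher line held above the filter level. Their p-values therefore depend on the line where they are high. Mismatch repair had MSH3, which acts on insertion and deletion loops, 0.74 higher and MLH3, which also acts in meiotic crossing over, at -0.47. MSH6 itself differed by 0.28 ± 0.19 between the lines. In recombination RAD54L (0.77) and the helicase gene BRIP1 (0.50) were higher in CCRF-CEM and UIMC1 was lower (-0.44), 3 of 21, and among checkpoint genes TP53BP1 (0.64) was higher and HUS1 (-0.61) and MDC1 (-0.57) lower, 3 of 16.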

How the data were processed

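Total RNA from the 8 cultures was labelled with biotin and hybridised to Affymetrix whole-transcript arrays, per the labels' protocols. The authors deposited 1 table of values on a log2 scale, read as such from their range; no source used here gives the background correction or normalization. Probe sets were named from the platform annotation: 16098 of 53617 carried 1 gene symbol and 37519 none, so the unnamed ones were left out. Each of 14884 genes was represented by its probe set of highest mean (779 genes had several), and genes with a mean below the 40th percentile (log2 5.18) were left out, leaving 8930. Arrays have no read depth, so their number limits the precision.

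Differences were fitted with limma 3.58.1 in R 4.3.3 (lmFit, eBayes) over all 8 arrays and adjusted by Benjamini-Hochberg over all 8930 genes at 0.05. The line and joined-control contrasts had terms for line and shTOX (yes or no). Contrasts of scramble, shTOX and untransduced cells had terms for line and these states, with the hairpins joined. The hairpin contrast had terms for line and for controls, shTOX-1 or shTOX-2, with the controls joined. The difference between the lines' shTOX effects used a mean for each line and state, shTOX or control. The procedure was tested on simulated data. The 10 genes and the pathway lists were chosen with earlier results of these data known. From each list up to 6 called genes of largest difference were named or, where none was called, up to 4 of smallest p. Hairpin numbers name constructs and do not pair cultures. Alternatives covered the filter, the normalization, probe set averaging, unnamed probe sets, an intensity trend, the line term, a block and each array left out.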

Additional observations from a re-analysis of the deposited data

Results flagged for a closer look

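In a comparison of the 4 arrays of each line, 20 sets of values of the 10 repair genes were examined for 1 array standing apart. For UNG in CCRF-CEM the untransduced array was the lowest, and its gap to the nearest array was 0.888 of the whole range. For PARP1 in CCRF-CEM the untransduced array was also the lowest, at 0.837 of the range. Both exceed Dixon's critical value for 4 samples. Chance alone gives such a result in about 1 in 20 sets, and the 4 arrays of a line hold different constructs and are not replicates.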

How the results depend on the processing

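The count of repair genes higher with shTOX than in untransduced cells was 6. It was 3 with arrays shifted to one median, 2 with every probe set tested and 0 without the line term, and 0 to 5 with 1 array left out. With the shTOX number as a replicate block it was 5, XRCC1 having an adjusted p of 0.0547. The hairpin deviations of the lines correlated at r = 0.225 over 8930 genes, and the numbers name hairpins. For scramble against untransduced cells the count was 1. It was 2 with the 60th percentile filter and with the intensity trend, 0 with every probe set, without the line term and with the block, and 0 to 1 with 1 array left out.

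Over all genes, 1056 were called between shTOX and untransduced cells, 1 without the line term, 912 to 1224 under the other settings and 25 to 1080 with 1 array left out, fewest without CCRF-CEM untransduced. Scramble against untransduced gave 95, then 0 without the line term, 9 with the block, 30 with every probe set, 162 with the 60th percentile filter, 182 with the trend and 3 to 90 with 1 array left out. The lines gave 2443, and 5042 with every probe set. shTOX against controls gave 0, with 16 under the block, 4 without CCRF-CEM scramble and 1 without HPB-ALL scramble. The difference between the lines' shTOX effects gave 0, with 8 without CCRF-CEM scramble.

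Signs turned for these values given in the report, none past the threshold, and the cause was not tested. Between the lines quantile normalization gave RAD51C 0.00288 and RAD54B 0.0266. Without both untransduced arrays PARP1 (-0.00828) and CHEK2 (-0.0955) turned in shTOX against controls, and the CHEK2 difference between the lines' shTOX effects was -0.00431. With 1 array left out, the line difference ran from -0.153 to 0.0374 for RAD51C, -0.154 to 0.0576 for RAD54B and -0.118 to 0.337 for UNG. That of shTOX against scramble ran from -0.0211 to 0.52 for RAD51C, -0.0308 to 0.0514 for RAD54B, -0.151 to 0.44 for MSH6, -0.104 to 0.0872 for PARP1 and -0.117 to 0.14 for UNG. Scramble against untransduced ran from -0.055 to 0.486 for RAD51C and -0.204 to 0.123 for PALB2, and the CHEK2 difference between the lines' effects from -0.226 to 0.631. Over all 10 genes the sign turned in 9 of 80 values with 1 array left out and 3 of 98 under other settings for shTOX-2 against shTOX-1. For the difference between the lines' effects it turned in 20 of 80 and 7 of 88.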
